A study of Mus musculus with 6 samples.

Results

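DNA replication and S phase genes were examined in embryonic mouse lungs in which the Wnt receptor gene Fzd2 was floxed and Cre was expressed from Shh, and in lungs with the Cre alone. The list held 43 genes of origin licensing, the replicative helicase, DNA polymerases and nucleotide supply. A gene was measured through probe sets whose platform annotation carried its symbol alone, and where several did so, through the one with the highest mean over all 6 arrays. By this rule 41 of the 43 genes were measured, out of 22180 genes in the whole data set. The other 2, Rfc4 and Ccne2, were represented here only by probe sets annotated to a second gene as well, and they were not analysed.

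The mutant group was 3 arrays of lungs with the genotype Fzd2Flox/Flox; Shh cre/+ (called mutant below), and the control group was 3 arrays of Shh cre/+ lungs. All embryos were at E12.5, and both groups carried 1 Cre allele at Shh, so no group without Cre was present. Shh is transcribed in the lung epithelium, whereas RNA came from whole lung buds, so mesenchyme, vessels and mesothelium contributed to every value. The titles call the arrays biological replicates, and the sources used here do not say whether a replicate was 1 embryo or a pool.

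Replication starts from origins that are licensed in the G1 phase, when the origin recognition complex, Cdc6 and Cdt1 load the MCM helicase onto DNA. In S phase, Cdc45 and the GINS complex join the MCM ring to make the active helicase, primase and the polymerases copy the strands behind it, and E2F transcription factors drive many of the genes concerned. In the branching lung bud both the epithelium, above all at its tips, and the surrounding mesenchyme divide, so these transcripts come from several cell types.

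Deposited values were log2 expression values, on which a difference of 1 is a doubling, and array medians lay between 7.29 and 7.32. Fzd2 itself was 9.67, 9.07 and 9.54 in mutant replicates 1 to 3, against 9.57, 9.82 and 9.75 in control replicates 1 to 3. The array labelled mutant replicate 1 lay inside the control range, and limma (a linear model with a shared estimate of variance) did not separate the groups for Fzd2 (log2 difference -0.29, SE 0.15, adjusted p = 0.475). The sources used here do not place its probe set inside or outside the floxed part, so the value checks the labels only weakly. The lung and thyroid factor Nkx2-1 lay between 10.05 and 10.09 in mutants and between 10.41 and 10.57 in controls, so this marker of lung epithelium was present in every array. Mutant replicate 2 and control replicate 1 stood apart from the rest. The mean of 9 measured adipose genes was 9.70 in mutant replicate 2, against 6.76 to 7.30 in the other 5 arrays. Control replicate 3 was the highest of those 5. Its Fabp4, named after its values were seen, was 8.52, against 12.92 in mutant replicate 2 and 5.99 to 6.73 in the remaining arrays. The mean of 12 adult small intestine genes was 9.32 in control replicate 1, against 6.06 to 6.25 elsewhere. Counts and medians of replication genes are therefore also given without mutant replicate 2, and over all 41 without both.

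All 41 replication genes had a lower mean in mutant than in control lungs, by small amounts, and none passed the test. The median log2 difference over the 41 was -0.068, which is 4.59% below the control level, and single genes ran from -0.19 (Mcm2) to -0.0037 (Gins2). Over all 22180 genes the median was 0.011, and 45.2% had a lower mean in mutants. limma called 0 of the 41 at an adjusted p under 0.05 (smallest adjusted p = 0.259, for Pole), where 0.0631% of all genes were called. At an unadjusted p under 0.05 there were 6 members, all lower, against 5.15% of all genes that were lower at that threshold. The 6 were Pole, Cdc6, Rrm2, Fen1, Mcm2 and Ccne1. In 12 of the 41 (29.3%) every mutant array lay below every control array, against 8.83% of all genes in that direction. The shares over all genes include dimmer genes. All members fell in deciles 7 to 10 of expression, where between 54.7% and 67.5% of genes per decile had lower means. An exact two-sided permutation test of 3 arrays against 3 cannot give less than p = 0.1, the value that each of those 12 reached. Standard errors of the differences lay between 0.048 and 0.10. Taken 1 gene at a time, no 95% interval reached below -0.38, a decrease of 23.3%.

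**Figure D1:**
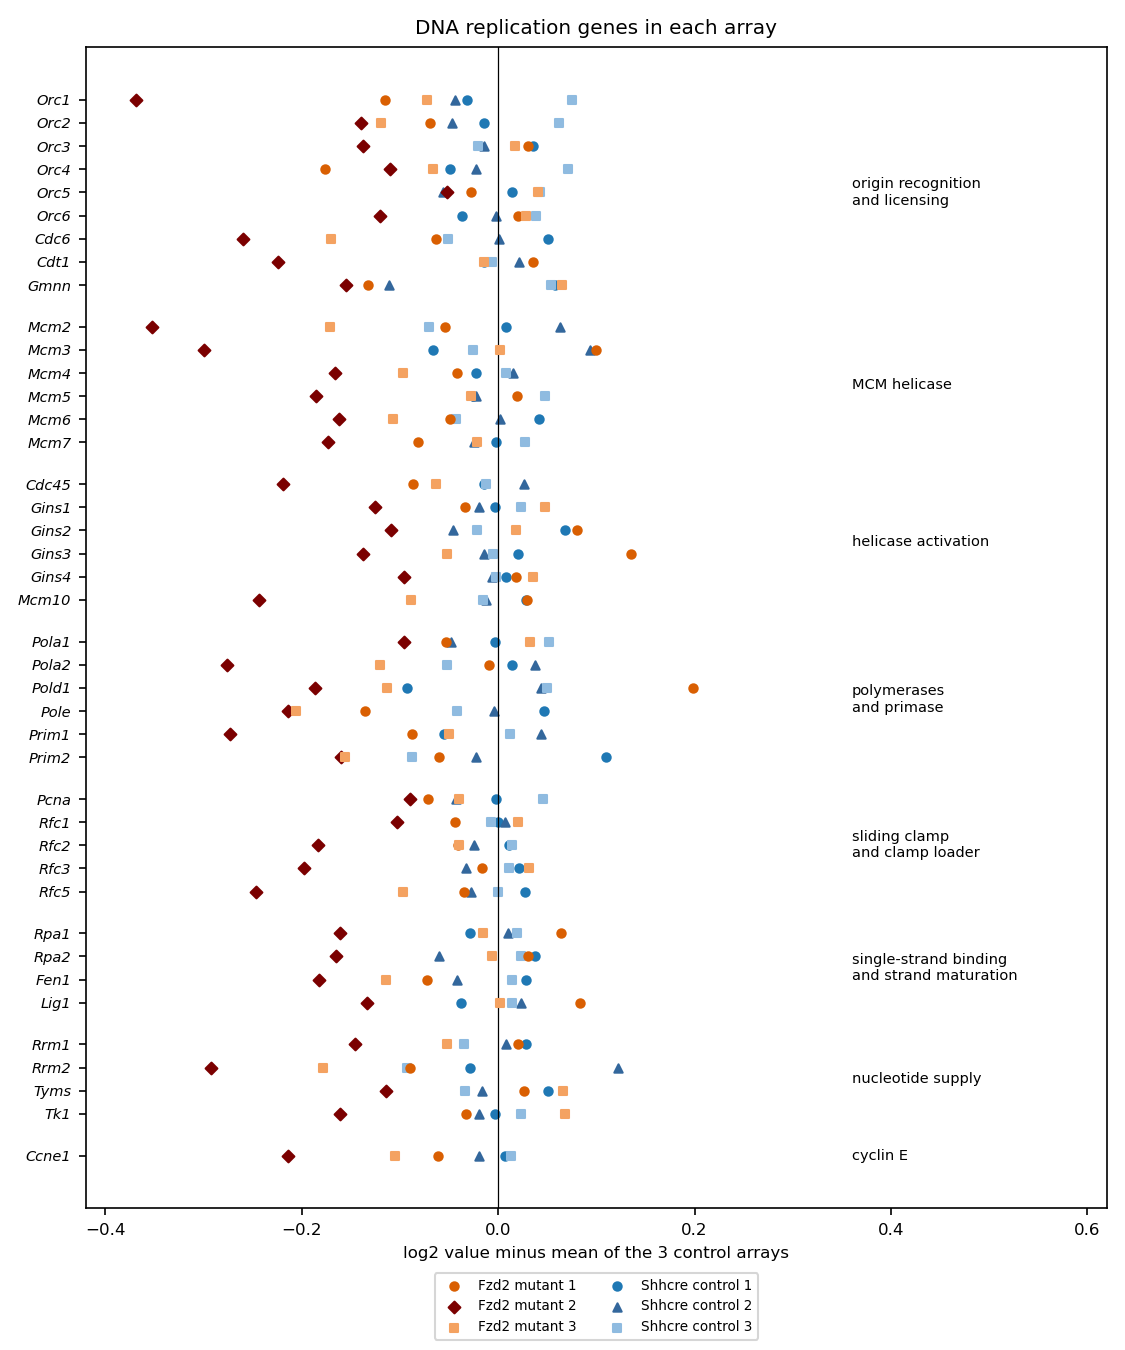
Log2 value of each of the 41 DNA replication genes in each array, minus the mean of the 3 control arrays for that gene (horizontal axis), with genes grouped by role down the page. Mutant replicate 2 (dark red diamonds) is the lowest of the 6 arrays in 39 genes, while mutant replicates 1 and 3 are interspersed with the controls in many.

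The shift differed between the mutant arrays. Mutant replicate 2 was the lowest of the 6 arrays in 39 of the 41 members (95.1%), against 20.7% of all genes. The exceptions were Orc4, lowest in mutant replicate 1, and Orc5, lowest in control replicate 2. Relative to each gene's control mean, the median over the 41 was -0.035 in mutant replicate 1, -0.17 in mutant replicate 2 and -0.040 in mutant replicate 3, and control replicates 1 to 3 lay at 0.0069, -0.015 and 0.011. Mutant replicate 2 lay below every control in 40 members (29.9% of all genes did), mutant replicate 1 in 20 (23.3%) and mutant replicate 3 in 21 (25.4%). Mutant replicates 1 and 3 lay above every control in 9 and 7 members. Without mutant replicate 2, 25 of the 41 had a lower mean in mutants (44.3% of all genes did), and the median was -0.030. Without both mutant replicate 2 and control replicate 1, the count was 26 and the median was -0.016. The part of the adipose signal of mutant replicate 2 in its low replication values was not tested.

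**Figure D2:**
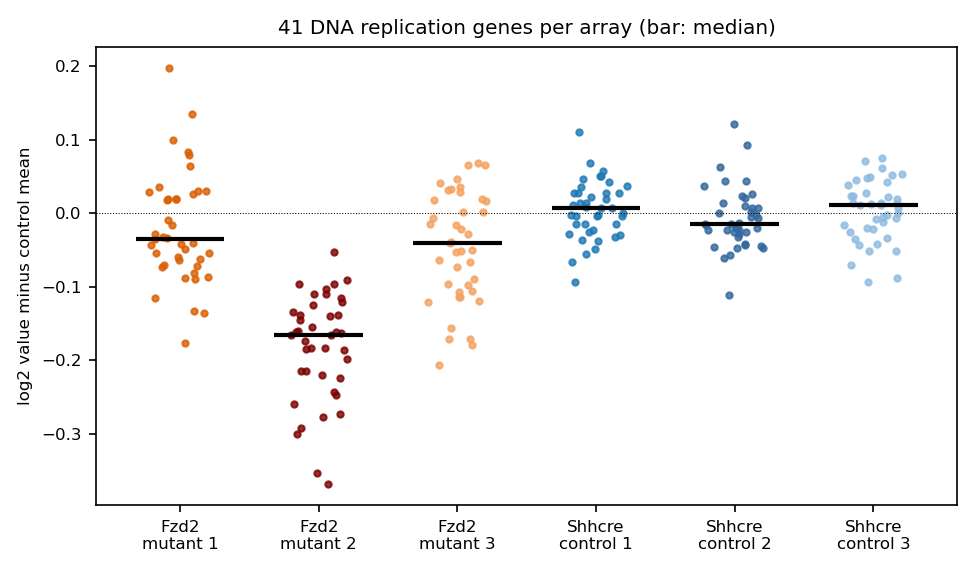
Log2 value of the 41 DNA replication genes minus their control means (vertical axis), 1 point per gene and 1 column per array, with bars at the medians. The median of mutant replicate 2 is -0.17, and those of the other mutant arrays are -0.035 and -0.040.

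Origin recognition and licensing genes were all lower on average, 9 of 9, with a median log2 difference of -0.074 and 0 called by limma (1 at an unadjusted p under 0.05). The median was -0.034 without mutant replicate 2, with 5 of the 9 lower. Cdc6, the ATPase that joins the origin recognition complex and helps to load the MCM ring, was 10.33, 10.14 and 10.23 in mutant replicates 1 to 3, against 10.45, 10.40 and 10.34 in control replicates 1 to 3. All mutant arrays lay below all controls, with 0.012 between the nearest pair, mutant replicate 1 and control replicate 3 (log2 difference -0.16, SE 0.063, adjusted p = 0.364 by limma). Orc1, the largest subunit of the origin recognition complex, was 8.69, 8.44 and 8.73 in mutants, against 8.77, 8.76 and 8.88 in controls. The groups did not overlap, and mutant replicate 2 lay farthest down (-0.19, SE 0.084, and -0.094 without that array). Orc2, another core subunit, was 9.83, 9.76 and 9.78 in mutants, against 9.89, 9.86 and 9.96 in controls, again without overlap (-0.11, SE 0.051). Orc4, an ATPase-fold subunit of the same complex, was 10.30, 10.37 and 10.41 in mutants, against 10.43, 10.46 and 10.55 in controls. It was the member of this class least tied to mutant replicate 2, with a difference of -0.12 with all arrays and also -0.12 without that array. The remaining subunit genes Orc3, Orc5 and Orc6 differed by -0.030, -0.013 and -0.024, the loading factor gene Cdt1 by -0.068 and the Cdt1 inhibitor gene Gmnn (geminin) by -0.074, and in these 5 genes the groups overlapped. Without mutant replicate 2, Orc3, Orc5, Orc6 and Cdt1 had higher means in mutants, by at most 0.024, and Gmnn stood at -0.034.

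Because many of the listed genes are known targets of E2F factors, their promoters were read in the RefSeq promoter table (build GRCm38.p6), which gives 250 bases before and 50 after each annotated start. Of the 43 listed genes 34 had a window there. An E2F word (TTTCCCGC, TTTCGCGC, TTTGCCGC or TTTGGCGC, on either strand, overlapping matches counted apart) stood in a window of 13 of the 34 (38.2%), against 2.6% of the 27025 genes in the table. Of the 12 members with the smallest p, 10 had a window (Pole and Mcm4 had no entry), and among these Cdc6, Orc1 and Mcm6 had such a word, and the 180 bases before their starts are shown with the words in capitals, followed by those of Mcm2, which had none in its window.
Cdc6 (chr11:98907971-98908150, plus strand): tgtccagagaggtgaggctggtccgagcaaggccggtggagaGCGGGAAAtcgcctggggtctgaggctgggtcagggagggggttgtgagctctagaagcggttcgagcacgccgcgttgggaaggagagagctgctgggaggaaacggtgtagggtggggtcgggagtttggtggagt
Orc1 (chr4:108579274-108579453, plus strand): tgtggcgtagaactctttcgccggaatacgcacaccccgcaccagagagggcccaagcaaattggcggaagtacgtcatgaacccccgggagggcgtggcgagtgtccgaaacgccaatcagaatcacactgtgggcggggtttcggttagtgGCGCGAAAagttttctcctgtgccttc
Mcm6 (chr1:128359706-128359885, minus strand): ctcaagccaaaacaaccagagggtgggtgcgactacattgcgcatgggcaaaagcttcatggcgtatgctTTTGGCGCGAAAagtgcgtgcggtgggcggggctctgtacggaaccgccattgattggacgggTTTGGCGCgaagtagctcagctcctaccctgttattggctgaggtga
Mcm2 (chr6:88898781-88898960, minus strand): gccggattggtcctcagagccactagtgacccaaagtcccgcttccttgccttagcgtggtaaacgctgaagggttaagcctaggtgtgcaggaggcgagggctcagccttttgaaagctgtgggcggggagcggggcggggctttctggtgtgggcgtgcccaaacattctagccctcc
The word began 138 bases before the start in Cdc6 and 27 before it in Orc1, and Mcm6 held 3 words, an overlapping pair at 110 and 106 bases and another at 47. A match of letters is a description and does not show binding. The 13 measured genes with a word had a median log2 difference of -0.065, and the 20 measured genes with a window and no word had one of -0.11, farther from 0.

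The genes of the MCM helicase, the ring of Mcm2 to Mcm7 that unwinds DNA, were lower on average in 6 of 6, with a median of -0.097 and 0 called by limma (1 at an unadjusted p under 0.05). Leaving out mutant replicate 2 gave a median of -0.061, with 5 of the 6 lower. Mcm2 was 11.29, 10.99 and 11.17 in mutant replicates 1 to 3, against 11.35, 11.40 and 11.27 in control replicates 1 to 3, the largest difference of the 41 genes (-0.19, SE 0.081, adjusted p = 0.396 by limma). Mutant replicate 1 lay above control replicate 3, so the groups overlapped, and without mutant replicate 2 the difference was -0.11. Mcm6 was 11.55, 11.43 and 11.49 in mutants, against 11.64, 11.60 and 11.55 in controls (-0.11, SE 0.052). Mcm4 was 12.16, 12.04 and 12.11 in mutants, against 12.18, 12.22 and 12.21 in controls (-0.10, SE 0.051). In both genes the groups stood apart, by 0.0054 in Mcm6 and 0.0195 in Mcm4 between the nearest arrays. Mcm7, Mcm5 and Mcm3 differed by -0.092, -0.065 and -0.066 with overlapping groups, and without mutant replicate 2 by -0.052, -0.0045 and 0.051.

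Genes that turn the loaded ring into an active helicase had a median of -0.028, with 6 of 6 lower on average and 0 called by limma (0 also at an unadjusted p under 0.05). Their median turned to 0.017 without mutant replicate 2, with 2 of the 6 lower. Cdc45, which binds the MCM ring as part of the active helicase, was 9.69, 9.56 and 9.72 in mutants, against 9.76, 9.81 and 9.77 in controls. These groups did not overlap (-0.12, SE 0.056, adjusted p = 0.424 by limma, and -0.075 without mutant replicate 2). Mcm10, which acts after Cdc45 and GINS have joined the ring, differed by -0.10, and by -0.030 without that array. The 4 GINS subunit genes Gins1, Gins2, Gins3 and Gins4 differed by -0.037, -0.0037, -0.018 and -0.014, and all 4 had a higher mean in mutants without mutant replicate 2, by 0.0066 to 0.049.

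Polymerase and primase genes had a median of -0.13, with 6 of 6 lower on average and 0 called by limma (1 at an unadjusted p under 0.05). In the fit without mutant replicate 2, 5 of the 6 were lower and the median was -0.067. Pole, the catalytic subunit of the leading-strand polymerase epsilon, was 10.55, 10.47 and 10.48 in mutant replicates 1 to 3, against 10.73, 10.68 and 10.64 in control replicates 1 to 3. All 3 mutant arrays were lower than all 3 controls by at least 0.094 (log2 difference -0.19, SE 0.050, adjusted p = 0.259 by limma), and the difference was -0.17 without mutant replicate 2. A second, much dimmer probe set of Pole, with means of 5.59 in mutants and 5.52 in controls, differed by 0.073. The primase genes Prim1 and Prim2, whose products make the RNA primers, differed by -0.14 and -0.13, and Pola2, the accessory subunit of the primase-bound polymerase alpha, by -0.14. Without mutant replicate 2 these 3 stood at -0.069, -0.11 and -0.065. The catalytic partner of Pola2, Pola1, differed by -0.039, and by -0.011 without that array. Pold1, the catalytic subunit of the lagging-strand polymerase delta, whose array values are given after they were seen, was spread widely in mutants, at 9.83, 9.45 and 9.52 against 9.54, 9.68 and 9.68 in controls, so that its mean difference of -0.034 turned to 0.042 without mutant replicate 2.

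The sliding clamp Pcna, which tethers polymerases to DNA, and the 4 measured subunit genes of replication factor C, which loads it, were lower on average in 5 of 5, with a median of -0.067 and 0 called by limma (0 also at an unadjusted p under 0.05). With mutant replicate 2 left out, 4 of the 5 were lower and the median was -0.040. Rfc5 was 10.89, 10.68 and 10.83 in mutants, against 10.95, 10.90 and 10.92 in controls. Mutant replicate 1 lay just below control replicate 2 (-0.13, SE 0.064, adjusted p = 0.459 by limma, and -0.066 without mutant replicate 2). Rfc2 also did not overlap between groups (-0.088), while Pcna, Rfc3 and Rfc1 did (-0.067, -0.061 and -0.042). Without mutant replicate 2, Rfc2 stood at -0.040, Pcna at -0.056, Rfc3 at 0.0074 and Rfc1 at -0.012.

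Of the genes for single-strand binding and strand maturation, 4 of 4 were lower on average, with a median of -0.042 and 0 called by limma (1 at an unadjusted p under 0.05). The median of these 4 turned to 0.018 without mutant replicate 2, with 1 of them lower. Fen1, the nuclease that trims flaps from Okazaki fragments, was 9.07, 8.96 and 9.02 in mutants, against 9.17, 9.10 and 9.15 in controls. The groups did not overlap (-0.12, SE 0.051, adjusted p = 0.391 by limma), and a dimmer probe set of the gene differed by 0.082. Rpa1 and Rpa2, subunits of the protein that coats single-stranded DNA, differed by -0.038 and -0.047, and Lig1, the ligase that joins the fragments, by -0.017. These 3 had higher means in mutants without mutant replicate 2, by at most 0.042.

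Nucleotide supply genes were lower on average in 4 of 4, with a median of -0.051 and 0 called by limma (1 at an unadjusted p under 0.05). This median was 0.0009 without mutant replicate 2, with 2 of the 4 lower. Rrm2, the S phase subunit of ribonucleotide reductase, was 10.91, 10.71 and 10.82 in mutant replicates 1 to 3, against 10.97, 11.12 and 10.91 in control replicates 1 to 3. Mutant replicate 1 and control replicate 3 were level, with control replicate 2 the highest array (-0.19, SE 0.076, adjusted p = 0.383 by limma). A much dimmer probe set of Rrm2, with means of 4.89 in mutants and 4.95 in controls, differed by -0.059. The large subunit gene Rrm1 differed by -0.059, the thymidine kinase gene Tk1 by -0.042 and the thymidylate synthase gene Tyms by -0.0075, all with overlapping groups, and without mutant replicate 2 they stood at -0.016, 0.018 and 0.046. Ccne1, the cyclin E gene that drives entry into S phase with Cdk2, was 10.40, 10.25 and 10.36 in mutants, against 10.47, 10.44 and 10.48 in controls. The groups did not overlap, with the controls spanning 0.033 (-0.13, SE 0.055, adjusted p = 0.400 by limma, and -0.084 without mutant replicate 2).

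**Figure D3:**
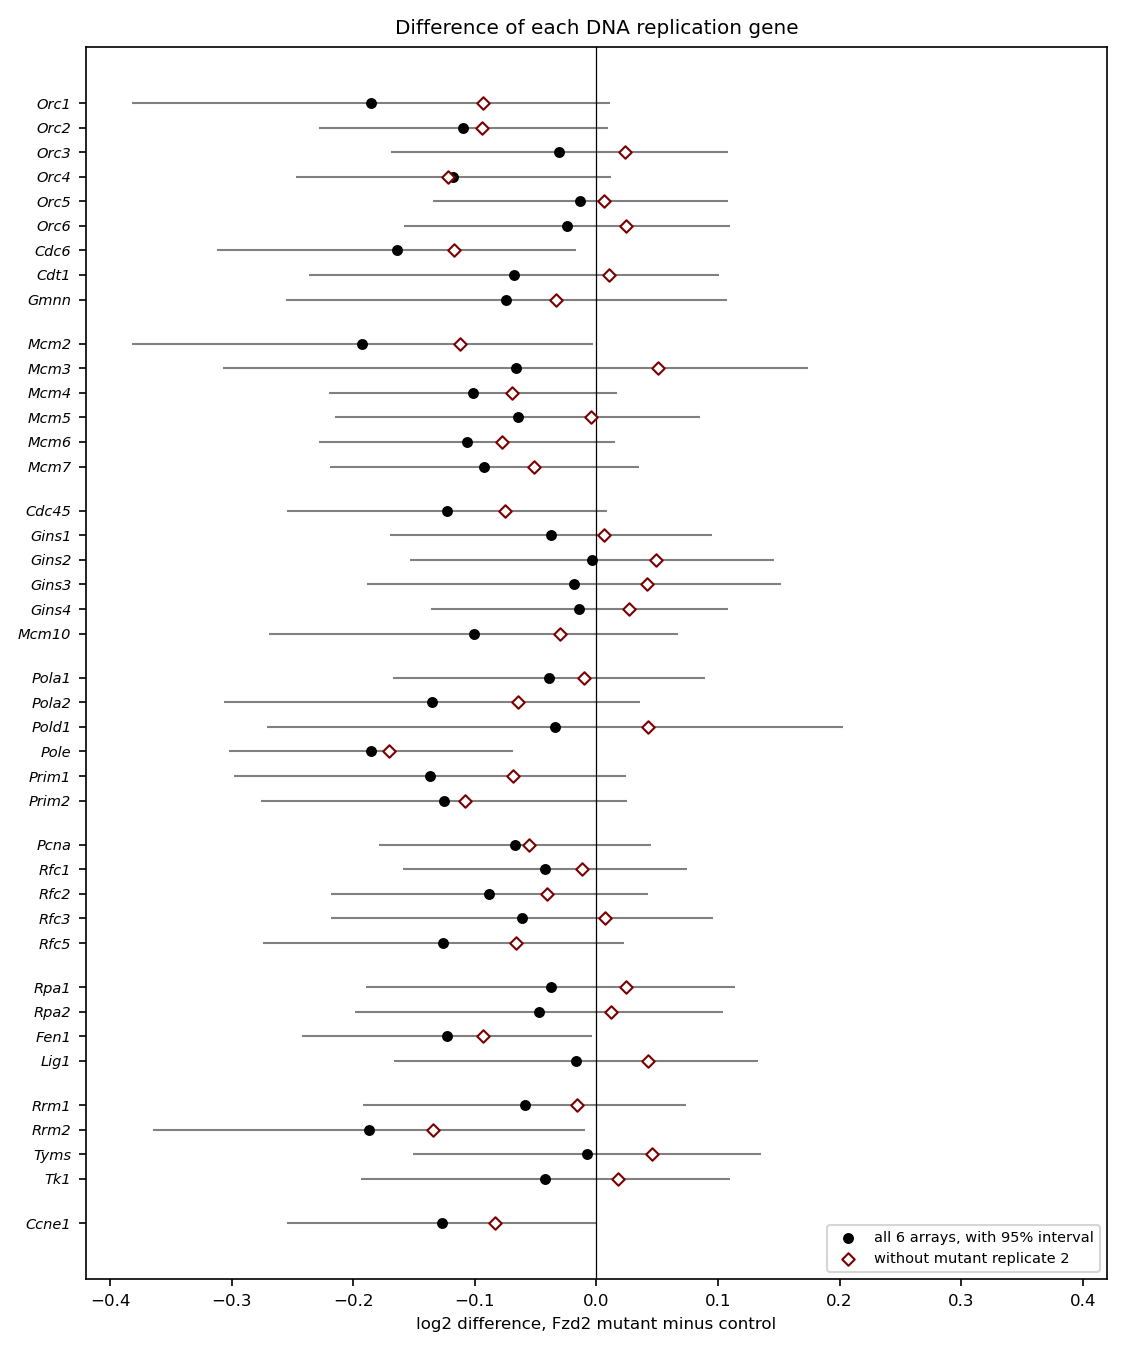
Log2 difference, mutant minus control, of each DNA replication gene with its 95% interval from limma (black points and lines) and the same difference without mutant replicate 2 (open red diamonds). All 41 black points lie left of 0, and 16 of the open diamonds lie right of it.

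The direction of the difference varied with expression level across the whole array. Members had means over all arrays between 8.61 and 12.46, and of the 8087 genes within that range 63.7% had a lower mean in mutants, with a median of -0.027. Of those 8087 genes, 35.9% were lowest in mutant replicate 2. That range was chosen after the values had been seen. The 75th percentile of all probe sets was 8.95, 8.94 and 8.94 in mutant replicates 1 to 3, against 8.97, 9.01 and 8.99 in control replicates 1 to 3. After a further quantile normalization, which makes all percentiles equal between arrays, 31 of the 41 members had a lower mean in mutants (38.3% of all genes did), their median was -0.042 against 0.026 over all genes, and groups did not overlap in 4 members in place of 12. Over all genes, groups did not overlap, in either direction, in 19.3% after this normalization and in 19.4% before it. The 12 members with the smallest p and Rfc5 stayed lower, while Pold1 turned to 0.0020. At an unadjusted p under 0.05, limma had 1 member after this normalization in place of 6, and 2804 of all genes in place of 2770. With each array centred on its median instead, 2 members and 2643 of all genes were under that threshold.

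**Figure D4:**
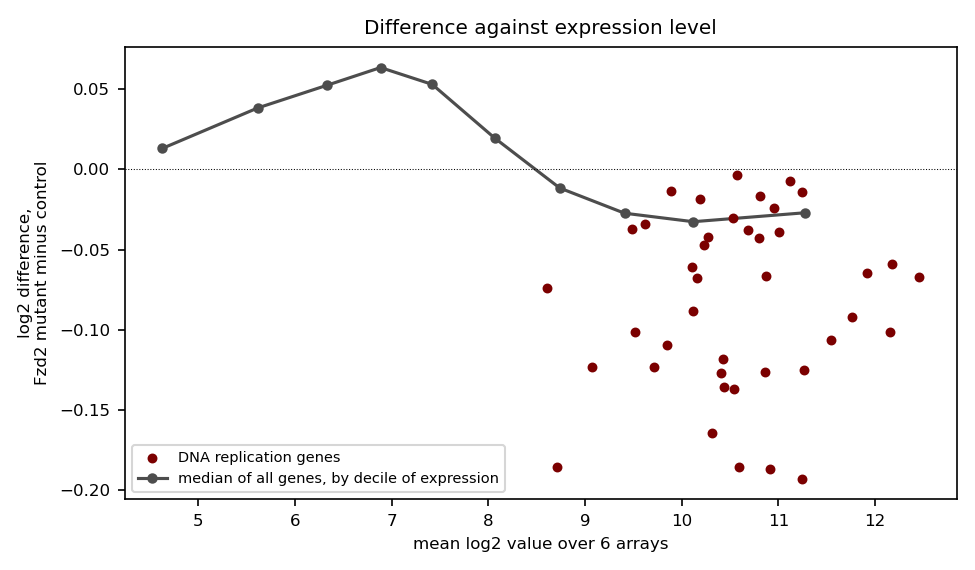
Log2 difference, mutant minus control (vertical axis), against the mean log2 value over 6 arrays (horizontal axis) for the 41 DNA replication genes (red), with the median of all genes in each decile of expression (grey line). The grey line lies above 0 for dimmer genes and between -0.033 and -0.012 in the 4 brightest deciles, where all members fall.

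Other genes of the pathway had like values. Of 36 measured further replication factors, 31 had lower means in mutants, with a median of -0.088, and limma called 0 (6 lower and 1 higher at an unadjusted p under 0.05, where 7.34% of all genes were higher). Lowest by p among those with lower means were Dna2, a nuclease-helicase that acts on flaps (-0.23, SE 0.071), Atad5, which helps to unload the clamp (-0.19, SE 0.067), and Dscc1, part of an alternative clamp loader (-0.15, SE 0.053). Pold4, the smallest subunit of polymerase delta, had the smallest p of the list and went the other way, at 7.98, 8.08 and 8.05 in mutants against 7.86, 7.72 and 7.80 in controls (0.24, SE 0.056, adjusted p = 0.209 by limma). Without mutant replicate 2, 30 of these 36 still had lower means, with a median of -0.056.

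Regulators of the G1 to S transition included 22 measured genes, of which 17 had lower means in mutants with a median of -0.096, and limma called 0 (7 lower and 1 higher at an unadjusted p under 0.05). E2f3, an activating E2F factor, was 10.10, 10.03 and 10.01 in mutants, against 10.17, 10.39 and 10.22 in controls (-0.21, SE 0.069, adjusted p = 0.314 by limma). E2f4, which with pocket proteins mostly represses, differed by -0.24 (SE 0.080), and Tfdp1, the shared DNA-binding partner of E2F factors, by -0.13 (SE 0.044). In these 3 genes the groups did not overlap, and without mutant replicate 2 the differences were -0.20, -0.17 and -0.13. Cdkn1a, the p53 target that inhibits cyclin-dependent kinases, was 8.92, 9.46 and 8.72 in mutants, against 8.34, 7.99 and 7.87 in controls. Every mutant array exceeded every control (log2 difference 0.97, SE 0.19), and limma did not call it over all genes (adjusted p = 0.164). Cdkn2c, another kinase inhibitor gene, named after its values were seen, was 9.60 in mutant replicate 2 and between 8.05 and 8.40 in the other arrays.

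Of 28 measured mitosis genes, 26 had lower means in mutants, with a median of -0.058, and limma called 0 (0 also at an unadjusted p under 0.05). Those with the smallest p were the spindle checkpoint genes Bub1b (-0.11, SE 0.048) and Bub1 (-0.091, SE 0.045), the mitotic transcription factor gene Foxm1 (-0.13, SE 0.062) and Birc5 (-0.11, SE 0.061), a subunit of the Aurora B complex. Mutant replicate 2 was the lowest array in 21 of the 28, and without it 21 had lower means with a median of -0.024.

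Genes of the p53 response, which can halt the cell cycle, mostly had higher values in mutants. Of 15 measured genes, Cdkn1a again among them, 14 had higher means (54.8% of all genes did), with a median of 0.14. At an unadjusted p under 0.05, 7 were higher and 1 was lower. Several genes of the list were dim. In the decile of expression with a mean level of 6.885, 26.3% of all genes had lower means, the lowest share of any decile. Others were brighter, Ccng1 among them (10.74 to 11.40 over the arrays). In deciles 7 to 10, between 54.7% and 67.5% of genes per decile had lower means. Of the 15, 2 (0.018% of all genes were called higher) rose past limma's threshold over all genes, Ccng1 (0.54, SE 0.059, adjusted p = 0.0368) and Eda2r (0.66, SE 0.067, adjusted p = 0.0334). Neither was called without any 1 of the arrays. The list mean was 8.64, 8.83 and 8.63 in mutant replicates 1 to 3 and between 8.36 and 8.43 in controls, so all mutant arrays were higher and mutant replicate 2 was the highest. Its member Mdm2, the ubiquitin ligase that degrades p53, named after its values were seen, was 11.83 in that array and at most 10.01 in the others.

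Markers of cell types also differed between the groups, and their part in the replication values was not tested. Of 25 measured pan-epithelial genes 25 had lower means in mutants (median -0.29, 1 called by limma, Esrp1, where 0.0451% of all genes were called lower). By limma 19 of the 25 were lower at an unadjusted p under 0.05 (5.15% of all genes were). Every mutant array lay below every control array in 19 (8.83% of all genes). The mean over the list lay between 8.84 and 8.97 in mutants and between 9.15 and 9.23 in controls, lowest in mutant replicate 2. In whole lungs, fewer epithelial cells and less RNA per epithelial cell cannot be told apart. Of 16 lung mesenchyme genes 10 had higher means (median 0.17, 1 called, Dcn, where 0.018% of all genes were called higher), with list means between 10.66 and 10.70 in mutants and between 10.52 and 10.54 in controls. Leukocyte genes had higher means in 7 of 10 and mesothelial genes in 6 of 7. Endothelial genes had lower means in 6 of 10 (median -0.0078) and erythroid genes in 5 of 7 (median -0.049). In these 4 lists limma called 0 (3, 2, 1 and 2 at an unadjusted p under 0.05).

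**Figure D5:**
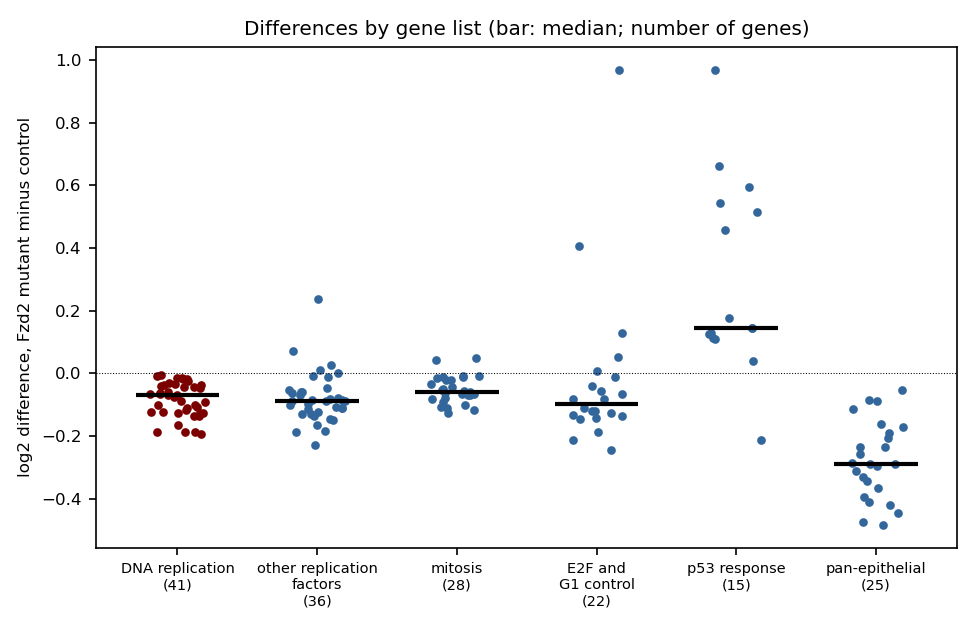
Log2 difference, mutant minus control, of each gene in 6 lists, with bars at the medians and the number of measured genes under each list. The 41 DNA replication genes span -0.19 to -0.0037, p53 response genes lie mostly above 0 (median 0.14) and pan-epithelial genes all lie below 0 (median -0.29).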

How the data were processed

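Total RNA of whole lung buds (100 ng an array) was primed with poly(T), amplified by in vitro transcription and biotinylated, per the labels' protocols. The log2 values were deposited by the authors, and the submitters' processing notes name oligo and RMA without versions, probe set level or filters. RMA makes the arrays' distributions alike, so only changes relative to other genes can be seen. Of 41345 probe sets, 23521 carried 1 gene symbol, 1814 carried several and 16010 were unnamed here, and 0 of the 23328 probe sets found in the GRCm38.p6 gene table needed a new symbol.

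Mutants were compared with controls in R 4.3.3 by limma 3.58.1 (lmFit, then eBayes, two-sided, with group alone in the model), and p-values were adjusted by Benjamini-Hochberg over 22180 genes with a threshold of 0.05. The fit was tested on simulated data. Differences are log2, mutant minus control, with limma's standard error. The genes, the lists and the tests were chosen with earlier results of these data known. Array values are given for the 12 members with the smallest p and the member with the smallest p in each role class, 13 genes in all, for Pold1, added after its values were seen, and of other lists up to 4 genes with the smallest p are named. Some genes stand in several lists. Arrays with the same replicate number did not deviate together (correlations of -0.045, -0.061 and 0.074), so they were not treated as pairs. Precision is limited by having 3 arrays per group. Alternatives changed the normalization, the filter, the probe set, the variance model, the arrays or a covariate. Figures were drawn with matplotlib 3.10.9.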

Additional observations from a re-analysis of the deposited data

How the results depend on the processing

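Of 17 alternatives to the fit on all arrays, none made limma call a replication gene (smallest unadjusted p of a member between 0.0024 and 0.0588), also at an adjusted p under 0.10, where 57 of all genes were called in place of 14. The count over all genes was 8 after a further quantile normalization, 25 above the 30th percentile of expression, 46 with trended robust variance and 47 within the members' expression range, an alternative added after the data were seen. It was 0 without any 1 array (1797 to 3084 at an unadjusted p under 0.05), 0 without control replicate 1 and mutant replicate 2 together (2716), 0 with the mean of pan-epithelial genes as a covariate (1212) and 0 with the replicate number as a block (2511), which moved no replication gene past the threshold.

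The count of replication genes with a lower mean ran from 25 (without mutant replicate 2) to 41 over the fits without 1 array, and their median from -0.11 (without mutant replicate 1) to -0.030. The count was 26 with control replicate 1 and mutant replicate 2 both left out. Groups did not overlap in 13 to 21 members without 1 array. With fewer arrays separation is easier for any gene, so these counts cannot be set beside the count with all arrays. The share over all genes in those fits is not given here, so they are not read as a result about the members. After quantile normalization they did not overlap in 4 of the 41, where 19.3% of all genes did not overlap in either direction. With that epithelial covariate, which nearly follows the groups, 4 members were lower and the median turned to 0.18. Mcm2 stood at 0.34, Rrm2 at 0.23, Rfc5 at 0.19, Cdc6 at 0.17, Orc1 at 0.16, Cdc45 at 0.14, Mcm6 at 0.11, Ccne1 at 0.080, Mcm4 at 0.059 and Fen1 at 0.012, none called (adjusted p of at least 0.891). With the dimmest probe set of a gene, Pole (0.073), Fen1 (0.082) and Rpa1 (0.078) turned, and Rpa1 also with the mean of its probe sets (0.020). The causes were not tested. The members' median in each array varied within groups with a standard deviation of 0.053, pooled over both groups, beside their median difference of -0.068. The spread was unequal, with array medians of -0.035, -0.17 and -0.040 in mutant replicates 1 to 3 and between -0.015 and 0.011 in controls. The median of the members' standard errors, 0.063, applies to single genes and does not measure the spread of the members' median.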
